A study of Rattus norvegicus with 170 samples.

Results

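Mitotic cyclins, the kinase CDK1 and the factors that switch it on and off were followed in single rat islet cells through 10 genes, *Ccna2*, *Ccnb1*, *Ccnb2*, *Cdk1*, *Cks1b*, *Cks2*, *Cdc25b*, *Cdc25c*, *Wee1* and *Pkmyt1*. They were taken by symbol from the deposited expression table, where each has 1 row, and are 10 of its 24113 genes. CDK1 drives entry into mitosis and works only when a cyclin is bound to it. Cyclin A2 accumulates from S phase onwards, whereas cyclins B1 and B2 build up in G2 and are destroyed as cells leave mitosis. The kinases WEE1 and MYT1 (the product of *Pkmyt1*) keep the bound CDK1 inactive by phosphorylating it, the phosphatases CDC25B and CDC25C remove these phosphates, and the small CKS proteins help the complex to recognise its substrates. Adult islet cells divide rarely.

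Islets of wild type, 8-week-old male Sprague Dawley rats were hand-picked and kept for 48 h in RPMI1640 with 10% FBS and 5.5 mM glucose. The medium held 0.1% DMSO, the vehicle, or 3 μM GNF4877, an inhibitor of the kinases DYRK1A and GSK3B. Dispersed cells were captured on Fluidigm C1 chips for cells of 10 to 17 μm, cDNA was made with SMARTer chemistry and libraries with Nextera XT, and 86 DMSO and 84 GNF4877 cells had single 50 bp reads. Neither animal, culture nor a further chip is named for any cell, so that each treatment was 1 sample and its cells do not replicate it. A difference between treatments cannot be told apart from one between chips or lanes. All intervals given for shares are exact Clopper-Pearson 95% intervals for counting error only. Whether 2 of them overlap describes the cells counted and says nothing of how far another sample of the same treatment would differ.

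Values are in RPM, read counts per transcript after scaling each cell to 1000000 mapped reads. They are not divided by transcript length, so levels were compared between cells and not between genes. A cell was counted as holding a gene at 10 RPM or more. Mapped reads ranged from 241604 to 2499138 per cell, and 10 RPM stood for 2.42 reads in the shallowest cell and 25 in the deepest. The 279 values of the 10 genes at 10 RPM or more rested on 3 to 2302 reads, with a median of 56. Of these values 71 lay between 10 and 20 RPM, and a further 74 lay between 5 and 10 RPM. The value nearest above the minimum was 10.1 RPM and the nearest below it 9.83 RPM. In 26 cells the highest of the 10 values was between 10 and 20 RPM, and in 20 cells it was between 5 and 10 RPM.

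A group of 7 cells, 4 from DMSO and 3 from GNF4877, stood apart in that 2.65% to 18.9% of their mapped reads fell on the listed transcripts, against 76.4% or more in the other cells. None of the 7 held any of the 10 genes at 10 RPM. The islet label was checked on hormone genes at 1000 RPM or more. *Ins1*, an insulin gene that marks β-cells, reached this level in 78 DMSO and 59 GNF4877 cells. More than 1 of *Ins1*, *Gcg*, *Sst* and *Ppy* did so in 26 DMSO and 6 GNF4877 cells, and none in 2 DMSO and 3 GNF4877 cells.

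At least 1 of the 10 genes was held by 69 of 86 DMSO cells (80.2%, 70.2% to 88%) and by 61 of 84 GNF4877 cells (72.6%, 61.8% to 81.8%). Without the 7 cells with few listed reads the shares were 84.1% and 75.3%. The intervals of the treatments overlap, but the genes held were not alike. *Ccna2*, *Ccnb1*, *Ccnb2* or *Cdk1*, the cyclins and their kinase, was held by 4 DMSO cells (4.65%, 1.28% to 11.5%) and by 26 GNF4877 cells (31%, 21.3% to 42%), and here the intervals do not overlap. The remaining 65 DMSO and 35 GNF4877 cells held only CKS, CDC25 or inhibitory kinase genes.

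Cells also differed in how many of the genes they held together. From DMSO, 57 cells held 1 or 2 of the 10 genes, 11 held 3 or 4, and 1 held 5 or more (1.16%, 0.0294% to 6.31%). From GNF4877, 43 cells held 1 or 2, 5 held 3 or 4, and 13 held 5 or more (15.5%, 8.51% to 25%). These 14 richest cells had a common base, since each of the 14 held *Cdk1*, *Cks1b* and *Cks2*. Of the 14, 12 held *Ccnb1*, 12 held *Ccnb2* and 9 held *Ccna2*. Across all cells 45 different sets of genes occurred, 26 of them in a single cell. The commonest were *Cks1b* alone (29 cells), *Wee1* alone (16 cells) and *Cks1b* with *Wee1* (14 cells), 3 sets that contain neither a cyclin nor *Cdk1*.

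To set the genes against the rest of the transcriptome, the mean RPM of each treatment was compared as log2((mean RPM + 1)/(mean RPM + 1)), GNF4877 over DMSO, for the 14119 genes with a read in 10 or more cells. At least a 2-fold higher mean in GNF4877 was found for 6 of the 10 genes, against 7.36% of all genes, and at least a 2-fold lower mean for 1, against 14.1%. The median log2 ratio was 2.16 over the 10 genes and -0.11 over all 14119. Among the 8 genes held by 10 or more cells, 4 had a higher share of cells in GNF4877 with intervals that do not overlap, against 1.005% of 11346 such genes, and 1 had a lower share, against 26.9%. Both minimums of 10 cells are counted over the treatments together. *Ccna2*, *Ccnb1*, *Ccnb2* and *Cdc25c*, read in fewer than 10 DMSO cells, enter the first count through their GNF4877 cells, as *Ccnb1*, *Ccnb2*, *Cdk1* and *Cks2* enter the second. The percentages over all genes are therefore given as a scale for the counts, and no excess is claimed from them. Each ratio and each pair of shares compares 1 sample with 1 sample and has no replicate check.

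**Figure D1:**
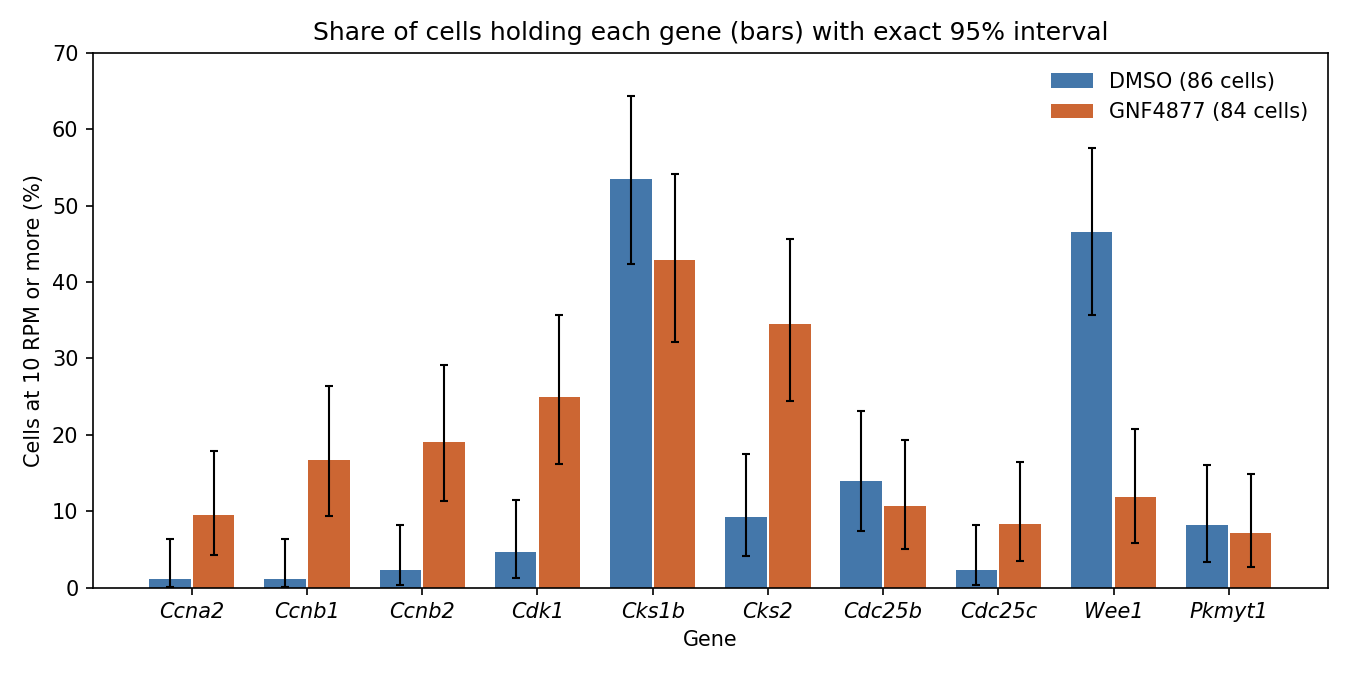
Share of the 86 DMSO and 84 GNF4877 cells (y axis, percent) that held each of the 10 genes (x axis) at 10 RPM or more; bars are shares and lines are exact Clopper-Pearson 95% intervals for counting error. *Ccnb1*, *Ccnb2*, *Cdk1* and *Cks2* were held by more GNF4877 cells with intervals that do not overlap, *Wee1* by more DMSO cells (40 against 10), and the intervals of the other 5 genes overlap.

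*Ccna2* encodes the cyclin of S phase and G2. It ranged from 0 to 148 RPM in DMSO and from 0 to 212 RPM in GNF4877, with a median of 0 in both. One vehicle cell, DMSO cell 46, held it at 148 RPM, and 8 GNF4877 cells held it (9.52%, 4.20% to 17.9%), the highest being GNF4877 cell 17. The intervals overlap. Mean RPM was 1.75 in DMSO and 9.03 in GNF4877, a log2 ratio of 1.87, and DMSO cell 46 alone supplied 98.1% of the DMSO sum. Without that cell the log2 ratio was 3.28. It fell short of 2-fold with a pseudocount of 10 RPM (0.70) and when log2(RPM + 1) was averaged over cells first (0.54).

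*Ccnb1* encodes the cyclin that carries CDK1 into mitosis. Its values ran from 0 to 49.4 RPM in DMSO and from 0 to 1460 RPM in GNF4877, again with a median of 0 in both. DMSO cell 46 was the only vehicle cell with any *Ccnb1* read. In GNF4877, 14 cells held it (16.7%, 9.42% to 26.4%), with a median of 408 RPM among them, and 9 further cells had *Ccnb1* reads below 10 RPM, 7 of them a single read. The highest value was in GNF4877 cell 49, a cell with *Sst*, the hormone gene of δ-cells. Mean RPM was 0.574 and 85.3, a log2 ratio of 5.78, and leaving out each cell in turn gave 5.47 to 6.43, the latter without DMSO cell 46. With a pseudocount of 10 RPM the ratio was 3.17, and when log2(RPM + 1) was averaged over cells first it was 1.45.

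*Ccnb2* is the second B-type cyclin gene. It ranged from 0 to 46.6 RPM in DMSO and from 0 to 651 RPM in GNF4877, with a median of 0 in both. DMSO cells 46 and 81 held it (2.33%, 0.283% to 8.15%), as did 16 GNF4877 cells (19%, 11.3% to 29.1%), with the highest value in GNF4877 cell 40. Mean RPM was 0.758 and 44.3, a log2 ratio of 4.69, which was 2.34 with a pseudocount of 10 RPM and 1.33 on the averaged log2 scale.

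*Cdk1*, the kinase gene, ranged from 0 to 247 RPM in DMSO (median 0) and from 0 to 895 RPM in GNF4877 (median 0.634 RPM). It was held by 4 DMSO cells (4.65%, 1.28% to 11.5%), namely cells 21, 30, 46 and 81, and by 21 GNF4877 cells (25%, 16.2% to 35.6%), the highest being cell 36. *Cdk1* was the most widely read of these 4 genes: any read at all was found in 10 DMSO cells (11.6%, 5.72% to 20.3%) and in 44 GNF4877 cells (52.4%, 41.2% to 63.4%). At that level 23 of the 44 GNF4877 cells were below 10 RPM. Mean RPM was 5.32 and 85.8, a log2 ratio of 3.78, 4.64 without DMSO cell 21 and 1.85 on the averaged log2 scale.

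The CKS genes behaved differently from each other. *Cks1b* was close to ubiquitous, with a read in 80 DMSO and 77 GNF4877 cells. Its levels reached from 0 to 129 RPM in DMSO (median 10.9 RPM) and from 0 to 271 RPM in GNF4877 (median 7.46 RPM), so that the 10 RPM minimum lay near the middle of its cells in both. At that minimum 46 DMSO cells (53.5%, 42.4% to 64.3%) and 36 GNF4877 cells (42.9%, 32.1% to 54.1%) held it, and the intervals overlap. At 50 RPM the counts were 4 DMSO cells (4.65%, 1.28% to 11.5%) and 16 GNF4877 cells (19%, 11.3% to 29.1%), where the intervals overlap narrowly. Mean RPM was 18.1 and 28.4, a log2 ratio of 0.62, whereas averaging log2(RPM + 1) over cells before subtracting gave the opposite sign, at -0.19 beside a median of -0.50 over all genes on that scale. The table also lists *Cks1bp6*, a *Cks1b* pseudogene by name, held by 19 DMSO and 26 GNF4877 cells, and reads of near-identical copies may be split between them.

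*Cks2*, by contrast, was held by 8 DMSO cells (9.30%, 4.10% to 17.5%) and 29 GNF4877 cells (34.5%, 24.5% to 45.7%), and these intervals do not overlap. The range was 0 to 39.7 RPM in DMSO (median 0) and 0 to 143 RPM in GNF4877 (median 1.66 RPM). Its highest values were in DMSO cell 46 and GNF4877 cell 25. Mean RPM was 2.01 and 15.5, a log2 ratio of 2.46, which was 1.09 with a pseudocount of 10 RPM and 1.58 on the averaged log2 scale. *Cks2* was the gene of the family held by most GNF4877 cells after *Cks1b*, and 14 of the 29 had no *Ccnb1* read.

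The activating phosphatases were each held by few cells. *Cdc25b* ranged from 0 to 157 RPM in DMSO and from 0 to 446 RPM in GNF4877, with a median of 0 in both, and was held by 12 DMSO cells (14%, 7.42% to 23.1%) and 9 GNF4877 cells (10.7%, 5.02% to 19.4%). The intervals overlap. GNF4877 cell 40 supplied 38.3% of the GNF4877 sum, and without it the log2 ratio of mean RPM went from 0.64 to 0.01. Averaging log2(RPM + 1) first turned its sign, to -0.21. *Cdc25c* was rarer. It ranged from 0 to 30.8 RPM in DMSO and from 0 to 382 RPM in GNF4877, with a median of 0 in both, and was held by DMSO cells 68 and 74 and by 7 GNF4877 cells (8.33%, 3.42% to 16.4%). Its log2 ratio was 2.73, from means of 0.707 and 10.3 RPM, and 2.0 without GNF4877 cell 26, which supplied 44.1% of the GNF4877 sum. Like *Ccna2*, it fell short of 2-fold with a pseudocount of 10 RPM (0.92) and on the averaged log2 scale (0.49).

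*Wee1*, the nuclear inhibitory kinase gene, went the other way. DMSO cells lay between 0 and 501 RPM (median 5.78 RPM) and GNF4877 cells between 0 and 211 RPM (median 0). It was held by 40 DMSO cells (46.5%, 35.7% to 57.6%) and by 10 GNF4877 cells (11.9%, 5.86% to 20.8%). The intervals do not overlap, although single GNF4877 cells, led by cell 96, reached levels within the DMSO range. Mean RPM was 48.4 and 9.41, a log2 ratio of -2.25, and leaving out each cell in turn gave -2.63 to -2.08. Among the cells with *Ins1* at 1000 RPM or more, 37 of 78 in DMSO (47.4%) and 5 of 59 in GNF4877 (8.47%) held it.

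DMSO cells also had more genes with a read, a median of 8889 against 6754, and 6585 against 4792 after each cell was thinned to 100000 reads. A lower share in GNF4877 was common among all genes, as given above. At the thinned depth a *Wee1* read was found in 56.6% of 83 DMSO cells (45.3% to 67.5%) and in 11.1% of 81 GNF4877 cells (5.21% to 20.1%). Across cells, the correlation of *Wee1* with the number of genes read was r = 0.26 in DMSO and r = 0.23 in GNF4877, over cells that share a chip. The part of this gap in the *Wee1* result was not tested.

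*Pkmyt1*, the gene of the membrane-bound inhibitory kinase, was held by 7 DMSO cells (8.14%, 3.34% to 16.1%) and 6 GNF4877 cells (7.14%, 2.67% to 14.9%), and the intervals overlap. It ranged from 0 to 44.1 RPM in DMSO and from 0 to 206 RPM in GNF4877, with a median of 0 in both. GNF4877 cell 6, which held no other gene of the family, supplied 53.4% of the GNF4877 sum, and without it the log2 ratio of mean RPM went from 0.83 to 0.01. Without DMSO cell 46 it was 1.07, past 2-fold, so that this gene changes sides with a single cell.

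Co-expression was then read cell by cell. *Ccnb1* was held by 15 cells, and 14 of them held *Cdk1*, 14 *Cks2*, 12 *Cks1b*, 11 *Ccnb2* and 8 *Ccna2*. The switches were less regular: of the 15 cells, 5 held *Cdc25b*, 5 *Cdc25c*, 3 *Wee1* and 2 *Pkmyt1*. *Ccnb1*, *Ccnb2* and *Cdk1* were held together by 11 cells, each of which also held *Cks1b* and *Cks2*, and 7 of the 11 held *Ccna2* as well.

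**Figure D2:**
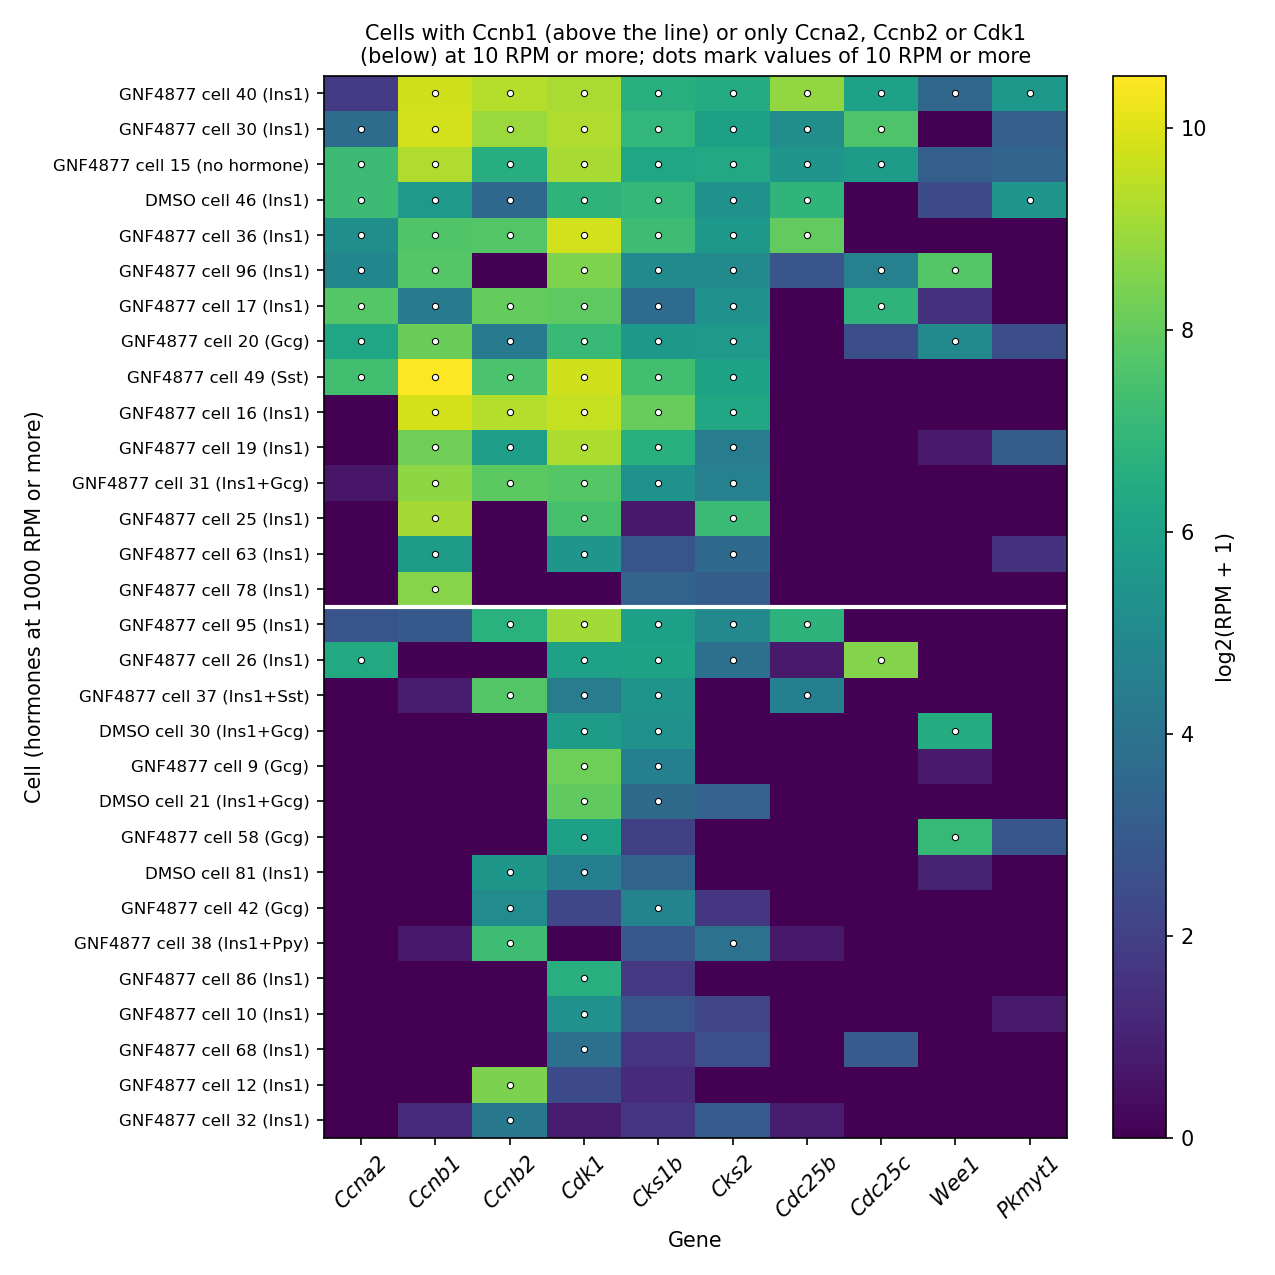
Level of each gene (columns, log2(RPM + 1), colour) in the 30 cells (rows) that held *Ccna2*, *Ccnb1*, *Ccnb2* or *Cdk1* at 10 RPM or more, labelled by treatment, cell number and hormone genes at 1000 RPM or more; dots mark values of 10 RPM or more. The 15 cells above the white line held *Ccnb1* and mostly several other members, whereas the 15 below it held fewer, with at most 5 of the 10 genes.

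GNF4877 cell 40 was the fullest, with 9 of the 10 genes: *Ccnb1* at 856 RPM, *Ccnb2* at 651 RPM, *Cdk1* at 585 RPM and *Cdc25b* at 446 RPM. It lacked only *Ccna2*, which stood at 2.53 RPM, and was the only cell of either treatment to hold both phosphatase and both inhibitory kinase genes. GNF4877 cells 15 and 30 shared 1 set of 8 genes, all 3 cyclins, *Cdk1*, both CKS genes and both phosphatases, with neither kinase at 10 RPM. In these cells *Ccnb1* stood at 608 and 876 RPM and *Cdk1* at 569 and 606 RPM.

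DMSO cell 46, the only vehicle cell with *Ccnb1*, also held 8 genes, with *Ccna2* at 148 RPM, *Cdk1* at 113 RPM, *Cdc25b* at 118 RPM and *Pkmyt1* at 44.1 RPM. It also carried mesenchymal markers, given below, and whether it was a doublet was not tested. Its *Ccnb1* level, 49.4 RPM, was below that of all but 1 of the 14 GNF4877 cells with *Ccnb1*, the exception being GNF4877 cell 17 at 19.1 RPM. In GNF4877 cell 17, *Ccna2* was instead the highest of any cell at 212 RPM, beside *Ccnb2* at 258 RPM and *Cdc25c* at 112 RPM.

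Further cells, 4 in number, each held 6 or 7 genes. GNF4877 cell 36 had the highest *Cdk1* level, 895 RPM, with *Ccnb1* at 200 RPM and *Cdc25b* at 252 RPM. GNF4877 cell 49 had the highest *Ccnb1* level and *Cdk1* at 868 RPM, yet no read of either phosphatase or either inhibitory kinase. Beside cell 40, GNF4877 cells 20 and 96 were the only *Ccnb1* cells with *Wee1*, held at 31.2 and 211 RPM together with *Ccna2*, *Ccnb1* and *Cdk1*. GNF4877 cells 16, 19 and 31 shared a set of 5, the B cyclins, *Cdk1* and the CKS genes, without *Ccna2* or a switch at 10 RPM.

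Some cells held *Ccnb1* with little else. GNF4877 cells 25 and 63 held *Ccnb1*, *Cdk1* and *Cks2* only and had no *Ccnb2* read. In GNF4877 cell 78, *Ccnb1* stood at 392 RPM while *Ccna2*, *Ccnb2* and *Cdk1* had no read at all. *Cks1b* at 9.07 RPM and *Cks2* at 7.56 RPM fell just short of the minimum there.

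Most cells that held any of the genes did so without *Ccnb1*. No *Ccnb1* read was found in 68 of the 69 DMSO cells (98.6%, 92.2% to 99.96%) and in 41 of the 61 GNF4877 cells (67.2%, 54% to 78.7%). A further 6 of these 61 GNF4877 cells had *Ccnb1* reads below 10 RPM. Whatever else they held, 85 of all 86 DMSO cells and 61 of all 84 GNF4877 cells had no *Ccnb1* read. The gap between the treatments was thus already present over all cells. The counts for single genes are to be read against all cells, of which 155 of 170 (91.2%) had *Ccnb1* below 10 RPM, and against GNF4877 cells, of which 70 of 84 (83.3%) did. With *Ccnb1* below 10 RPM, *Ccna2* was held by 1 of its 9 cells (11.1%, 0.281% to 48.3%), *Ccnb2* by 7 of 18 (38.9%, 17.3% to 64.3%) and *Cdk1* by 11 of 25 (44%, 24.4% to 65.1%).

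Of the switches and CKS genes, *Cdc25c* was found without *Ccnb1* in 4 of 9 cells (44.4%, 13.7% to 78.8%), *Cks2* in 23 of 37 (62.2%, 44.8% to 77.5%) and *Cdc25b* in 16 of 21 (76.2%, 52.8% to 91.8%). *Pkmyt1* was found without it in 11 of 13 cells (84.6%, 54.6% to 98.1%), *Cks1b* in 70 of 82 (85.4%, 75.8% to 92.2%) and *Wee1* in 47 of 50 (94%, 83.5% to 98.7%). The share for *Wee1* rests on DMSO, the source of 40 of its 50 cells. In the 40 DMSO cells with *Wee1* no *Ccnb1* read was found, as in 85 of all 86 DMSO cells.

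These shares pool both treatments, and DMSO had a single cell with *Ccnb1*. Within GNF4877 alone, *Ccna2* was without *Ccnb1* in 1 of 8 cells (12.5%), *Cdc25c* in 2 of 7 (28.6%), *Ccnb2* in 6 of 16 (37.5%) and *Cdk1* in 8 of 21 (38.1%). *Cks2* was without it in 16 of 29 (55.2%), *Cdc25b* in 5 of 9 (55.6%), *Cks1b* in 25 of 36 (69.4%), *Wee1* in 7 of 10 (70%) and *Pkmyt1* in 5 of 6 (83.3%). Apart from that of *Pkmyt1*, each of these shares was below the 83.3% of all GNF4877 cells. The intervals are wide, such as 3.67% to 71% for *Cdc25c* and 34.8% to 93.3% for *Wee1*, and differences between genes were not tested.

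*Cdk1*, *Ccnb2* or *Ccna2* without *Ccnb1* at 10 RPM was found in 15 cells, 3 from DMSO and 12 from GNF4877. GNF4877 cell 95 was the one most like the cells with *Ccnb1*, with *Cdk1* at 526 RPM, *Ccnb2* at 103 RPM, *Cdc25b* at 111 RPM and both CKS genes, and its *Ccnb1* level of 6.85 RPM, from 12 reads, was below the minimum but not 0. GNF4877 cell 26 was the only cell with *Ccna2* and no *Ccnb1*. It held *Ccna2* at 82.9 RPM, *Cdk1* at 63.5 RPM and the highest *Cdc25c* level of any cell, 382 RPM, and had no read of either B cyclin.

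*Cdk1* without any cyclin was found in 7 cells. GNF4877 cells 10, 68 and 86 held *Cdk1* alone, at 38.8, 13.3 and 95.9 RPM. GNF4877 cell 9 and DMSO cell 21 held it with *Cks1b* only, at 291 and 247 RPM. In GNF4877 cell 58 and DMSO cell 30 it stood beside *Wee1*, with *Cdk1* at 61.6 and 55.7 RPM and *Wee1* at 130 and 91 RPM.

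*Ccnb2* without *Ccnb1* and with *Cdk1* was found in GNF4877 cells 37 and 95 and in DMSO cell 81. Without *Cdk1* at 10 RPM it was found in 4 cells, all from GNF4877. GNF4877 cell 12 held *Ccnb2* alone at 348 RPM, with *Cdk1* at 4.14 RPM. GNF4877 cell 38 held it at 152 RPM with *Cks2*, cell 42 at 32.2 RPM with *Cks1b*, and cell 32 alone at 18.3 RPM.

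The other 100 cells held neither a cyclin nor *Cdk1* at 10 RPM. Among them, 63 held *Cks1b*, 45 *Wee1*, 20 *Cks2*, 14 *Cdc25b*, 11 *Pkmyt1* and 3 *Cdc25c*. The 3 with *Cdc25c* were DMSO cells 68 and 74, at 30.8 and 26.5 RPM, and GNF4877 cell 23, at 12.8 RPM. *Cks2* as the only gene of the family was found in 6 GNF4877 cells and 0 DMSO cells, whereas *Wee1* as the only gene was found in 14 DMSO and 2 GNF4877 cells.

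The balance of activating and inhibitory genes was read beside *Cdk1*. Of the 25 cells with *Cdk1*, 10 held *Cdc25b* or *Cdc25c* and 6 held *Wee1* or *Pkmyt1*. A phosphatase gene without an inhibitory kinase gene was held by 7 of the 25, an inhibitory kinase gene without a phosphatase gene by 3, both kinds by 3 and neither by 12. Among the 145 cells with *Cdk1* below 10 RPM, 16 held a phosphatase gene and 51 an inhibitory kinase gene. Of those 51 cells 42 were from DMSO. Within DMSO, a phosphatase gene was held by 1 of 4 cells with *Cdk1* and 13 of 82 without it. An inhibitory kinase gene was held by 2 and 42 of them. Within GNF4877, a phosphatase gene was held by 9 of 21 cells with *Cdk1* (42.9%) and 3 of 63 without it (4.76%). An inhibitory kinase gene was held by 4 (19%) and 9 (14.3%) of them, and *Wee1* by 4 and 6. These counts do not compare levels between genes.

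Correlations across cells describe the same layout on log2(RPM + 1). They are over cells that share a chip, a lane and a treatment, and are given without a test. Over all 170 cells the 6 pairs of *Ccna2*, *Ccnb1*, *Ccnb2* and *Cdk1* had r from 0.52 to 0.77, with a median of 0.66. The highest r was that of *Ccnb1* with *Cdk1* (r = 0.77, Spearman rho = 0.53), whereas the highest rho of the 6 was that of *Ccna2* with *Ccnb1* (0.59). For *Ccnb1* and *Cdk1* this goes with 14 of the 15 *Ccnb1* cells inside the 25 *Cdk1* cells. Within GNF4877 alone the median of the 6 was 0.66. The lowest r was that of *Ccna2* with *Ccnb2* (r = 0.52), 2 cyclin genes held together by 7 cells, which are 77.8% of the *Ccna2* cells and 38.9% of the *Ccnb2* cells.

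With *Ccnb1*, *Cks2* reached r = 0.62 and *Cdc25c* r = 0.39, while *Cks1b* (r = 0.36), *Cdc25b* (r = 0.26) and *Pkmyt1* (r = 0.23) were lower. An r of at least 0.5 with *Ccnb1* was found for 4 of the 9 other members, against 0.779% of 14118 genes. These r values pool both treatments, and *Ccna2*, *Ccnb1* and *Ccnb2* pass the minimum of 10 cells with a read through GNF4877. The percentage is therefore again a scale only, and no excess is claimed from it. The 9 pairs with *Wee1* had r from -0.15 to 0.14 over all cells, with a median of 0.00. Within GNF4877 alone they had r from -0.02 to 0.33, with a median of 0.15. For *Ccnb1* and *Wee1*, r was -0.07 over all cells and 0.15 within GNF4877. *Cdc25c* was closest to *Ccna2* (r = 0.60), and 5 cells held both, which are 55.6% of the cells of each.

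Genes of cycle phases outside the family were read beside the members. A list of 20 S phase genes (such as *Gins2*, *Cdc6* and *Pcna*, those held by most cells) and one of 20 M phase genes (such as *Kif20a*, *Mki67* and *Hmmr*) were counted at 10 RPM in each cell. The 15 cells with *Ccnb1* held a median of 14 S phase genes (2 to 18) and 17 M phase genes (2 to 19). The 15 cells with *Ccna2*, *Ccnb2* or *Cdk1* but not *Ccnb1* held a median of 7 S phase genes (3 to 17) and 1 M phase gene (0 to 17). The other 100 cells held a median of 5 S phase genes (2 to 12) and 0 M phase genes (0 to 3), close to the 40 cells with none of the 10 genes, at 4 (0 to 6) and 0 (0 to 2).

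**Figure D3:**
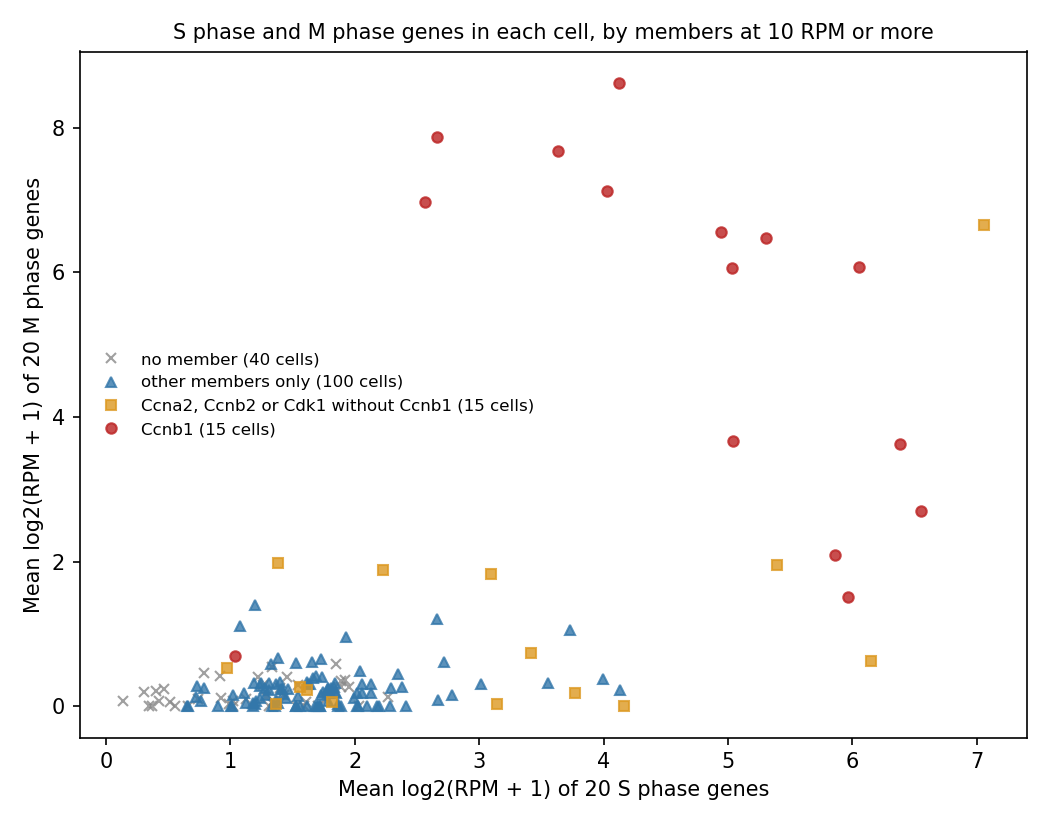
Mean log2(RPM + 1) of the 20 S phase genes (x axis) and of the 20 M phase genes (y axis) in each of the 170 cells (points), by which members the cell held at 10 RPM or more. Except for GNF4877 cell 78, the cells with *Ccnb1* lie towards the top, the right or both, and GNF4877 cell 95, without *Ccnb1* at 10 RPM, lies furthest to the right of all cells, at 7.06 and 6.66.

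The cells with *Ccnb1* were not all alike in these lists. GNF4877 cells 16 and 30 held 17 M phase genes each but 7 and 8 S phase genes. GNF4877 cells 19, 25 and 63 were the converse, with 16, 15 and 16 S phase genes and 7, 5 and 4 M phase genes. These 3 cells also lacked *Ccna2* reads, and 25 and 63 lacked *Ccnb2*. DMSO cell 46 held 18 of each. GNF4877 cell 78, with *Ccnb1* at 392 RPM and no *Cdk1* read, held 2 of each, and *Top2a* was one of them at 207 RPM.

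The cells with *Ccna2*, *Ccnb2* or *Cdk1* but not *Ccnb1* at 10 RPM were mixed. DMSO cell 21, with *Cdk1* at 247 RPM, held 17 S phase genes and 1 M phase gene. GNF4877 cell 26, the cell with *Ccna2* and *Cdc25c*, held 15 and 6, and GNF4877 cells 58 and 68 held 12 and 10 with 0 M phase genes. DMSO cells 30 and 81 and GNF4877 cell 9, which also held *Cdk1*, had 4, 5 and 4 S phase genes. With *Ccnb2* alone, GNF4877 cell 12 held 7 and 5 and GNF4877 cell 32 held 3 and 1. GNF4877 cell 95 held 16 S phase and 17 M phase genes, within the range of the cells with *Ccnb1*.

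Members were held across hormone classes. The 15 cells with *Ccnb1* comprised 11 with *Ins1* only, 1 with *Gcg*, the glucagon gene of α-cells, 1 with *Sst*, 1 with *Ins1* and *Gcg*, and 1 with none of the 4 hormones. Of the 55 GNF4877 cells with *Ins1* only, 17 held a cyclin gene or *Cdk1* (30.9%, 19.1% to 44.8%), and of the 16 with *Gcg* only 4 did (25%, 7.27% to 52.4%). In DMSO these counts were 2 of 53 (3.77%, 0.460% to 13%) and 0 of 4. None of the 3 GNF4877 cells with *Ppy* only held any of the 10 genes. *Wee1* was held by 24 of the 53 DMSO cells with *Ins1* only and by 14 of the 26 with several hormones.

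Sums of 1000 RPM or more of markers from outside the endocrine islet were found in 2 of the cells with *Ccnb1*. The 6 mesenchymal markers (*Col1a1*, *Col1a2*, *Col3a1*, *Pdgfrb*, *Acta2* and *Sparc*) summed to 11922 RPM in DMSO cell 46, where all 6 reached 10 RPM and *Col1a1* led at 3470 RPM, beside *Ins1* at 11547 RPM. In GNF4877 cell 15, the cell with no hormone, they summed to 19625 RPM, with 4 of the 6 at 10 RPM and *Sparc* at 7005 RPM. Whether these 2 cells were doublets was not tested. The acinar, endothelial and immune markers were all at 0 in both cells, while 3 of 4 duct markers reached 10 RPM in DMSO cell 46 (sum 57.3 RPM). In the other cells with *Ccnb1* the sums of duct, immune and endothelial markers reached 685, 615 and 54.4 RPM, below the 1111, 981 and 224 RPM reached in cells without *Ccnb1*. Mesenchymal sums of 1000 RPM or more were found in 3 DMSO and 2 GNF4877 cells in all, against a median of 1.0 RPM in DMSO and 0 in GNF4877. Beside the 2 cells above, these were DMSO cells 24 and 29 and GNF4877 cell 42. Of these, GNF4877 cell 42 held *Ccnb2* without *Ccnb1*, as given above. Without DMSO cell 46 and GNF4877 cell 15, *Ccnb1* was held by 0 of 85 DMSO cells (up to 4.25%) and 13 of 83 GNF4877 cells (15.7%, 8.61% to 25.3%), and *Cdk1* by 3 (3.53%) and 20 (24.1%).

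Other genes of CDK1 activation and mitotic entry were taken from a list of 21. Of its genes, 17 had a read in 10 or more cells, and of these the mean RPM was at least 2-fold higher in GNF4877 for 9 (against 7.36% of all genes), at least 2-fold lower for 2 (against 14.1%) and within 2-fold for 6, with a median log2 ratio of 1.12. Those past 2-fold rest on few cells in part. *Foxm1*, a transcription factor of G2 genes, had a log2 ratio of 2.0 that became 0.61 without GNF4877 cell 9, *Bora* went from 1.17 to 0.80 without GNF4877 cell 40, and *Cdk7* from 1.12 to 0.97 without GNF4877 cell 47. Of the 15 held by 10 or more cells, intervals of the shares did not overlap for 3. The share was higher in GNF4877 for *Aurka* (against 1.005% of all genes) and lower for *Cdkn1a* and *Cdkn1b*. Of all genes 26.9% were lower in the same way. *Aurka* reaches 10 cells only through GNF4877 and *Cdkn1a* only through DMSO, and no excess is claimed from these counts.

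The kinases upstream of CDK1 were found in part of the same cells. *Aurka*, an activator of PLK1, was held by 1 DMSO and 15 GNF4877 cells (log2 ratio 3.88), and by 8 of the 15 cells with *Ccnb1*. *Plk1*, which activates CDC25C and marks WEE1 for removal, was held by 3 and 6 cells, 6 of these 9 being cells with *Ccnb1*, and its log2 ratio of 2.74 became 2.02 without GNF4877 cell 16 and 3.48 without DMSO cell 46. *Mastl*, the kinase that restrains the phosphatase opposing CDK1, was held by 5 and 11 cells (log2 ratio 3.76), 9 of them with *Ccnb1*. Its substrates *Ensa* (76 and 71 cells, log2 ratio 0.40) and *Arpp19* (75 and 71 cells, log2 ratio 0.08) were held by most cells of both treatments.

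The checkpoint kinase gene *Chek1* was held by 11 and 20 cells (log2 ratio 2.08), 5 of them with *Ccnb1* and 20 with neither a cyclin nor *Cdk1*. *Cdk2*, the S phase partner of cyclin A2, was held by 19 and 36 cells (log2 ratio 2.32) and by 12 of the 15 cells with *Ccnb1*. The CDK-activating kinase genes *Cdk7* (30 and 32 cells), *Ccnh* (63 and 48 cells) and *Mnat1* (28 and 18 cells) had log2 ratios of 1.12, 0.29 and 0.36. *Cdc25a*, the phosphatase relative of *Cdc25b* and *Cdc25c*, was held by 22 and 16 cells (log2 ratio -0.39).

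*Cdc20*, which targets the B cyclins for destruction, was held by 4 and 12 cells (log2 ratio 3.57, and 4.18 without DMSO cell 29), and 12 of these 16 held *Ccnb1*. *Fzr1*, its relative in late mitosis and G1, was held by 11 and 4 cells, 2 of them with *Ccnb1*, and its log2 ratio of -0.08 became -0.89 without GNF4877 cell 16 and 0.30 without DMSO cell 75. The inhibitor genes *Cdkn1a*, which encodes p21, and *Cdkn1b*, which encodes p27, were held by 12 and 1 cells and by 55 and 21 cells, with log2 ratios of -2.42 and -1.64. *Cdkn1a* was held by 0 of the 15 cells with *Ccnb1* and *Cdkn1b* by 9 of them. Of these 15 cells 14 were from GNF4877, where *Cdkn1a* was held by 1 of all 84 cells. Relatives of the cyclins were near 0, with *Ccnb3* held by no cell and *Ccna1* by 2 GNF4877 cells, both with *Ccnb1*. *Mybl2* was held by 1 and 3 cells and *Ccnf* by 1 and 5 cells.

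The genes most like *Ccnb1* over the 170 cells were found by Pearson r on log2(RPM + 1). They were *Top2a* (r = 0.90), *Cenpt* (r = 0.85), *LOC100359539* (r = 0.85), *Rrm2* (r = 0.85), *Cdca3* (r = 0.83), *Ect2* (r = 0.82), *Tpx2* (r = 0.82), *Pbk* (r = 0.82), *Bub1* (r = 0.82) and *Hmmr* (r = 0.80). Each of these r values was above that of *Cdk1* with *Ccnb1*. Those most like *Cdk1* were *Cenpt* (r = 0.89), *Ube2t* (r = 0.84), *LOC100359539* (r = 0.83), *Rrm2* (r = 0.83) and *Pbk* (r = 0.82), so that 4 of the 5 are also among the 10 for *Ccnb1*. *Top2a*, which untangles replicated DNA, was held by 14 of the 15 cells with *Ccnb1*, and by 1 DMSO and 15 GNF4877 cells in all.

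Because *Ccnb1*, *Ccnb2* and *Cdk1* appeared together in 11 cells, their promoters were read for shared letters. Promoter windows of 250 bases before to 50 after the gene start were taken from the RefSeq table for assembly GRCr8 and found for 7 of the 10 genes, *Ccnb1*, *Ccnb2*, *Cdk1*, *Cks1b*, *Cks2*, *Cdc25b* and *Cdc25c*. The letters searched, on both strands, were CCAAT (bound by the factor NF-Y), TTTGAA (the cell cycle homology region, CHR), its variant TTTAAA, and TTCCCGC or TTGGCGC (E2F). The TTGG of TTGGCGC can also be part of a reversed CCAAT, but no such overlap was found in the 7 windows. A match is a description of the sequence and no measure of binding.

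CCAAT was found in all 7 windows, and at least 2 copies in 6, against 37.5% and 11.2% of 33469 promoters. TTTGAA was found in 5 of the 7, against 18.3%. The 5 windows with TTTGAA, those of *Ccnb2*, *Cdk1*, *Cks1b*, *Cks2* and *Cdc25c*, also had at least 2 CCAAT, a combination found in 2.12% of all promoters. TTTAAA was found for *Ccnb1* only (13.6% of all promoters) and an E2F match for *Cdk1* only (6.26%). In *Ccnb1* the first bases of both CCAAT copies lay 32 bases apart, in *Ccnb2* neighbouring copies lay 33 and 33 bases apart, and in *Cdk1* those nearest the gene start lay 32 bases apart. The other neighbouring copies in *Cdk1* lay 129 bases apart. Spacings were 88 and 48 bases in *Cks1b*, 43, 36 and 18 in *Cks2*, and 17, 56 and 36 in *Cdc25c*. *Cdc25b* had 1 CCAAT and none of the other letters.

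**Figure D4:**
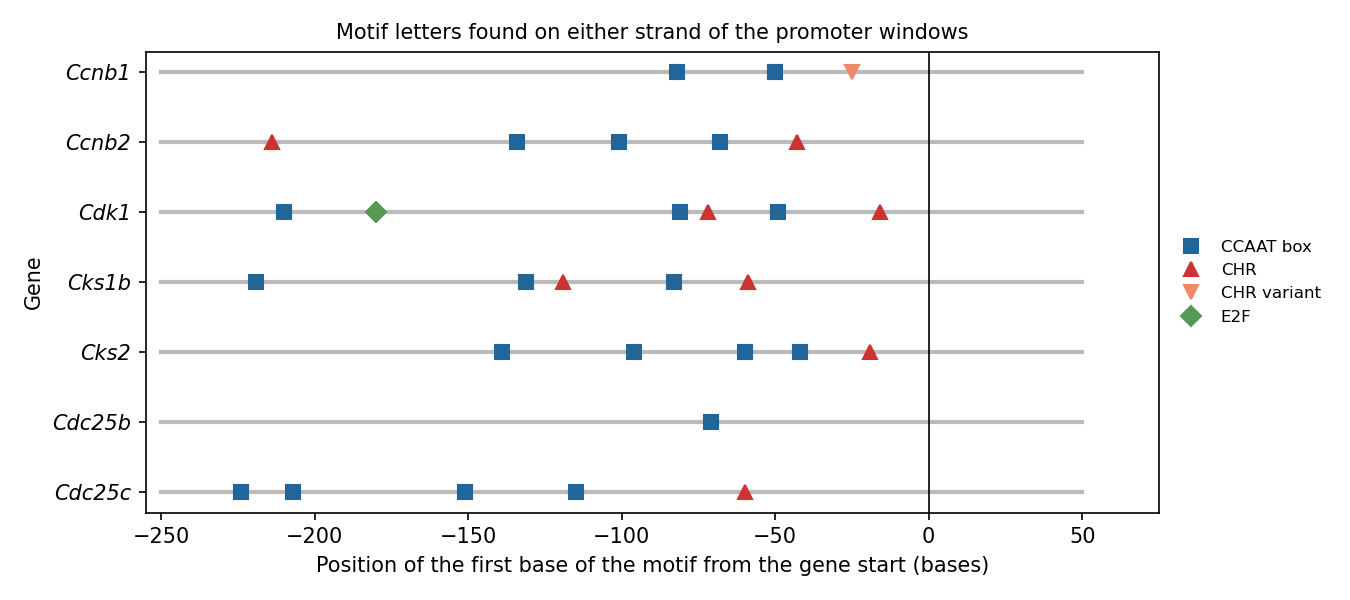
Positions (x axis, bases from the gene start, which is the black line) of the CCAAT, CHR (TTTGAA), CHR variant (TTTAAA) and E2F letters on either strand in the promoter windows (grey lines) of 7 genes (y axis). CCAAT copies lie between -224 and -42, and in *Ccnb1*, *Ccnb2*, *Cdk1*, *Cks1b*, *Cks2* and *Cdc25c* a CHR or its variant lies between them and the gene start.

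The windows of *Ccnb1* (chr2:33655176-33655475, minus strand), *Ccnb2* (chr8:79981609-79981908, minus strand) and *Cdk1* (chr20:19265043-19265342, plus strand) on GRCr8 are shown, since they belong to the 3 genes held together in the 11 cells above. They run 5′ to 3′ towards the gene, and capitals mark the letters searched, on either strand.
Ccnb1: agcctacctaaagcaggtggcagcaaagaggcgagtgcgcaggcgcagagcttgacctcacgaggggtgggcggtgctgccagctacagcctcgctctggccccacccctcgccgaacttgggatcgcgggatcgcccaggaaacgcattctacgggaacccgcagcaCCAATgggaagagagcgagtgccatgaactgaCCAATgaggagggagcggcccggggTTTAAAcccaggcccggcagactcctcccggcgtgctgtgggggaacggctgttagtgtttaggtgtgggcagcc
Ccnb2: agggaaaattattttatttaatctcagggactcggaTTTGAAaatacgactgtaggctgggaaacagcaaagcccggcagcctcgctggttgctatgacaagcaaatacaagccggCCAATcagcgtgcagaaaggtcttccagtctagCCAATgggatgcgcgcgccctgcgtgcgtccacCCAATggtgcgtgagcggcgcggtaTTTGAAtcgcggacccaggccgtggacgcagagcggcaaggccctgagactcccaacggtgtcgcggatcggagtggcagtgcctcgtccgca
Cdk1: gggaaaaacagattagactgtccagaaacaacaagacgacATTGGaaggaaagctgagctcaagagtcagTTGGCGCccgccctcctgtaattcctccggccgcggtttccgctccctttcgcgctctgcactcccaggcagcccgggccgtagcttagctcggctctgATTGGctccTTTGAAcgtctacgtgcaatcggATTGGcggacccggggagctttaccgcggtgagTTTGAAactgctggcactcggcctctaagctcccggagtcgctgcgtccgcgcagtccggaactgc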

How the data were processed

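The authors deposited 1 table of RPM per transcript and cell, used here as deposited. The submitters' notes name CASAVA 1.8.2, BWA 0.5.9 and SAMtools 0.1.19. The methods name the mouse transcriptome as the mapping target, whereas the table lists rat RefSeq accessions, and the genome build is not given in the sources used here. Cells kept by the authors had more than 100000 mapped reads and 1 cell seen in the port. No further cell was removed, and doublets were not removed.

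Transcripts (27586) were summed by symbol to 24113 genes, with the floor of 0.01 set to 0. Reads were recovered from the RPM step of each cell. Named genes are the 10 members, the 10 genes with the highest r with *Ccnb1* and the 5 with *Cdk1* among genes read in 10 or more cells, the 21-gene activation list, and, of the S and M phase lists, the genes with most cells at 10 RPM. *Cks1bp6*, the marker genes and the cells named singly were chosen after their values were seen. Members and lists were chosen with earlier results of these data known.

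Alternatives were the minimum level, thinning to 100000 reads, the pseudocount, the scale, the cells used and each cell left out in turn. The steps were tested on simulated data. Python 3.11.15 was used with pandas 2.3.3, matplotlib 3.10.9, numpy 2.4.6 and scipy 1.17.1.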

Additional observations from a re-analysis of the deposited data

How the results depend on the processing

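No paired analysis was possible because no animal or islet preparation is named for any cell and there is 1 sample per treatment; a number shared by a DMSO and a GNF4877 cell is not stated to make them a pair. The share of cells with any member depends on the minimum level. In DMSO it was 94.2% with any read, 36% at 50 RPM and 91.9% with 3 reads or more, and in GNF4877 95.2%, 41.7% and 89.3%. After thinning to 100000 reads it was 88% in DMSO and 86.4% in GNF4877. For *Ccna2*, *Ccnb1*, *Ccnb2* and *Cdk1* alone, an alternative chosen after seeing the data, it was 4.65% and 31%. The share of GNF4877 cells with a member but without *Ccnb1* was 48.6% at 50 RPM and 80% after thinning.

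With a pseudocount of 10 RPM, 2.48% of all genes were at least 2-fold higher and 3.40% at least 2-fold lower, and with the difference of mean log2(RPM + 1) 0.970% and 25.1%. *Wee1* was at least 2-fold lower in every setting, and the number of members at least 2-fold higher ranged from 4 to 7. *Ccna2* and *Cdc25c* fell short of 2-fold with a pseudocount of 10 RPM and with the difference of mean log2(RPM + 1), and *Pkmyt1* passed it with a pseudocount of 0.1 RPM (1.06), without DMSO cell 46 and without the cells with mesenchymal markers. The median r of the 45 pairs was 0.26 over all cells, 0.36 within GNF4877 and 0.17 within DMSO. With any read counted, cells with *Ccna2*, *Ccnb2* or *Cdk1* but not *Ccnb1* had a median of 11 S phase and 4 M phase genes, and cells with other members only had 1 M phase gene. The cause of these changes was not tested.

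Among members past 2-fold no ratio changed sign, while those of *Cks1b* and *Cdc25b*, within 2-fold, did with the difference of mean log2(RPM + 1). Leaving out the cells with few listed reads, cells with several hormones, the cells without high *Ins1* or the 2 *Ccnb1* cells with mesenchymal markers was chosen after seeing the data for the share of cells per member. Only 2 of these shares left the interval of the reported value, those of *Ccna2* and *Ccnb1* in DMSO, both 0 without the cells with mesenchymal markers. The minimum level moved more of the shares per member: 13 left that interval at 50 RPM and 11 with any read, against 2 after thinning to 100000 reads. At 10 RPM the shallowest cell needs 3 reads, so that absence of a member there can be a matter of depth.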
